A study of Caenorhabditis elegans with 6 samples.

Results

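Membrane trafficking genes were chosen by name. A gene entered the set when its name began with rab, arf, arl, vps, snx, sec, syx or syn followed by a hyphen, and each gene identifier was used once. The table held 91 such genes out of 46646, of which 82 had a read in at least 1 library, beside 9186 other genes with a read. No gene with the prefix syn was found. By the RefSeq annotation of assembly WBcel235, 89 of the 91 are protein-coding and 2, arl-7 and vps-32.2, are pseudogenes. The choice used names only and no read count, though the rule was set with earlier results of these data known.

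The reads come from iCLIP, in which living tissue is irradiated with ultraviolet light, so that proteins and the RNA in contact with them become joined and can be recovered together. Early C. elegans embryos were irradiated with 3 exposures of 400 mJ/cm2, and RNA was recovered through GFP. There were 3 groups with 2 libraries each. In the first, the endogenous meg-3 gene carried a GFP tag (MEG-3::GFP, allele meg-3(ax3054)). In the second, the endogenous pgl-1 gene did (PGL-1::GFP, allele pgl-1(ax3122)). The control carried a transgene, axIs1374, that expresses GFP alone from the germline promoter of pie-1, in a background with the allele unc-119(ed3). MEG-3 and PGL-1 are proteins of P granules, the RNA-rich condensates that early embryos pass to the germline precursor cells. Worms of all groups were grown at 20 °C. The paper describes the MEG-3::GFP libraries as independent experiments. For the other groups the sources used here do not say whether the libraries came from separate cultures, so their spread may be technical.

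Membrane trafficking moves proteins and lipids between organelles in vesicles. Proteins enter the endoplasmic reticulum (ER) through the SEC61 channel, leave it in vesicles with a COPII coat, and are sorted at the Golgi and in endosomes. Small GTPases of the Rab, ARF and ARL families mark each membrane and recruit its coats and tethers. SNARE proteins, among them the syntaxins, fuse vesicles with their target, and the ESCRT, HOPS, retromer and exocyst complexes work in endosomal sorting, lysosomal fusion, endosomal recycling and secretion. In C. elegans this machinery takes up yolk into the oocyte and releases cortical granules in the zygote, and its mRNAs are largely supplied by the mother.

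Depth differed widely. The libraries held 225609 and 280007 reads on genes with MEG-3::GFP, 21180 and 92593 with PGL-1::GFP, and 26531 and 14040 with GFP alone (replicates 1 and 2 throughout). Genes with a read numbered from 1025 in PGL-1::GFP replicate 1 to 7961 in PGL-1::GFP replicate 2. Where a gene is listed at 0, up to 3 reads remain possible. On the scale of CPM, reads divided by the library total and scaled to 1e+06 reads, that floor lies at 10.7 in the deepest library, MEG-3::GFP replicate 2, and at 214 in the shallowest, GFP replicate 2. Such limits and the intervals given here cover counting error only. The names of the GFP libraries are of another kind than those of the tagged proteins, and if the names mark a batch, batch and control cannot be told apart. Of 11 maternal early embryo markers, 9 reached 60 reads in both MEG-3::GFP libraries, while the 4 intestine markers had 1 read in all 6 libraries together. GFP replicate 2 stood apart in these markers. The maternal markers summed to 0.271% of its reads and to between 0.608% and 2.16% in the other libraries. Its 4 cuticle markers summed to 0.356% (50 reads) and its 4 muscle markers to 0.207% (29 reads), where neither list passed 0.0528% in any other library. Most of these reads fell on 1 gene of each list, sqt-3 with 41 and unc-54 with 27. sqt-3 also had 48 reads in MEG-3::GFP replicate 1 and 31 in PGL-1::GFP replicate 2. The part of this difference of GFP replicate 2 in the comparisons with GFP was not tested, and their values without that library are given beside them.

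Trafficking genes took 1.81% of the reads in MEG-3::GFP replicate 1 (95% Wilson interval 1.76 to 1.87) and 1.85% in replicate 2 (1.80 to 1.90). In PGL-1::GFP the share was 2.25% (2.06 to 2.46) and 1.20% (1.13 to 1.27). In GFP it was 1.70% (1.55 to 1.86) and 1.05% (0.892 to 1.23). The MEG-3::GFP libraries lay close to each other and the libraries of the other groups did not. PGL-1::GFP replicate 1 had the highest share of all and GFP replicate 2 the lowest. The mean was 1.83% ± 0.0310 with MEG-3::GFP, 1.72% ± 0.746 with PGL-1::GFP and 1.37% ± 0.462 with GFP alone (SD, n = 2 each). MEG-3::GFP exceeded GFP by 0.458 percentage points (exact permutation test over libraries, two-sided, p = 0.333, the smallest p that 2 against 2 allows). This difference was 0.131 points without GFP replicate 2 and 0.784 without GFP replicate 1. Without sec-61, the gene with the most reads, it was 0.212 points (exact p = 0.667) and the groups overlapped. PGL-1::GFP exceeded GFP by 0.351 points (exact p = 0.667), and MEG-3::GFP exceeded PGL-1::GFP by 0.107 points (exact p = 1). The last difference turned to -0.421 points without PGL-1::GFP replicate 2. That between PGL-1::GFP and GFP turned to -0.177 points without PGL-1::GFP replicate 1 and was 0.0245 without GFP replicate 2.

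More genes of the set were seen where a library was broad. Of 82 trafficking genes read anywhere, 38 and 78 were read with MEG-3::GFP, 15 and 74 with PGL-1::GFP, and 60 and 23 with GFP alone. Of 9186 other genes read anywhere, 3092 and 6383 were read with MEG-3::GFP, 1010 and 7887 with PGL-1::GFP, and 4110 and 1990 with GFP alone. The study sets a threshold of 60 reads for each library. It was passed by 20 and 20 trafficking genes with MEG-3::GFP, 3 and 4 with PGL-1::GFP, and 2 and 0 with GFP alone. A count of 60 reads is 266 and 214 CPM with MEG-3::GFP, 2833 and 648 CPM with PGL-1::GFP, and 2262 and 4274 CPM with GFP alone, so the threshold was far stricter in the shallow libraries. Among the trafficking genes read in a library, 52.6% and 25.6% reached 60 reads with MEG-3::GFP, against 36.9% and 19.3% of the other genes. In PGL-1::GFP the percentages were 20.0% and 5.41% against 12.3% and 2.43%, and with GFP alone they were 3.33% and 0 against 0.949% and 0.352%. The median count of a trafficking gene with a read was 61.5 and 20.5 reads with MEG-3::GFP, against 38 and 16 for other genes. It was 12 and 8 against 5 and 5 with PGL-1::GFP. In both GFP libraries it was 3 for trafficking genes and 3 for other genes.

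**Figure D1:**
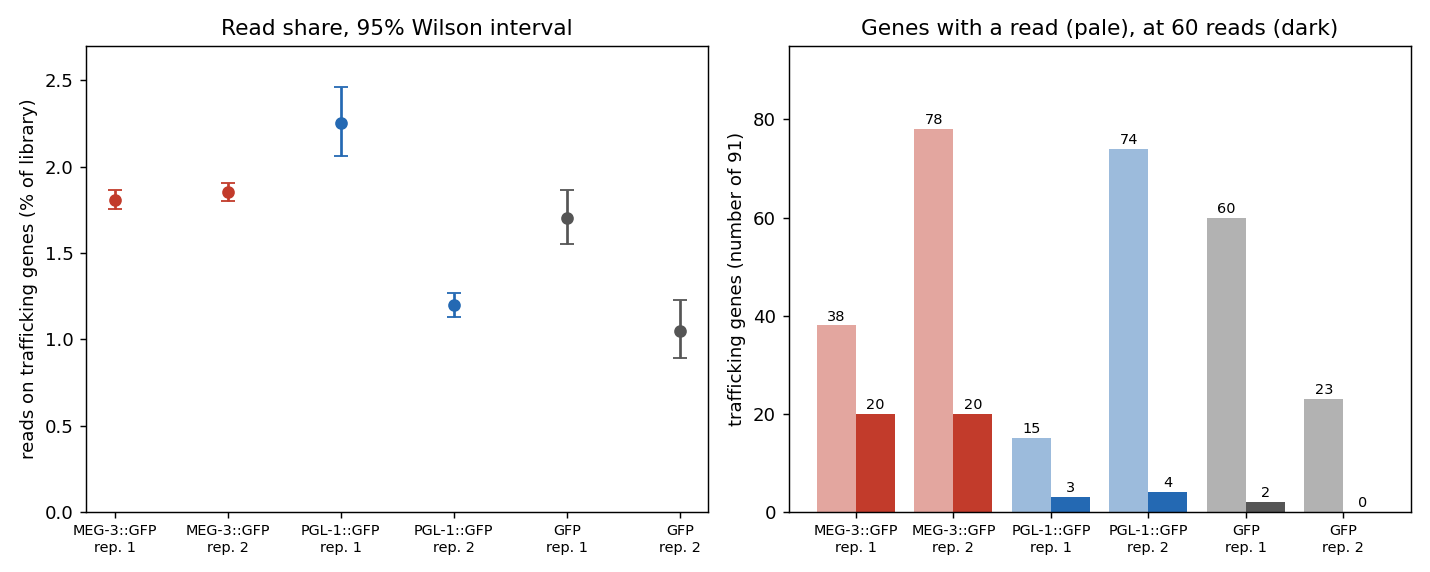
Percent of reads on the 91 trafficking genes with 95% Wilson intervals, and the number of trafficking genes with a read and with at least 60 reads, in each of the 6 libraries. The shares run from 1.05% in GFP replicate 2 to 2.25% in PGL-1::GFP replicate 1, and 20 genes reach 60 reads in each MEG-3::GFP library.

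In both MEG-3::GFP libraries 12 trafficking genes reached 60 reads, which is 14.6% of the 82 with a read. Among all 9268 genes with a read the share was 7.09%, and among the 8218 other protein-coding genes it was 7.79%. The 12 cover most steps of the route: the ER channel (sec-61), the COPII coat (sec-23, sec-24.1), 3 Rab GTPases (rab-1, rab-6.1, rab-11.1), an ARF-like GTPase of lysosomes (arl-8), a lysosomal tether subunit (vps-39), a subunit of the endosomal lipid kinase (vps-15), and 3 genes of the retromer and sorting nexin list (vps-35, snx-6, snx-13). No ESCRT, exocyst, SNARE or GARP gene was among them. In either MEG-3::GFP library 28 passed (34.1%), against 18.9% of all genes. With all libraries scaled to the median total before the threshold, 3 trafficking genes passed in both. The share of all genes after this scaling was not counted.

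In both PGL-1::GFP libraries 1 trafficking gene passed, sec-61, where 0.194% of all genes did. In either of them 6 passed (7.32%), against 3.29% of all genes. In either GFP library 2 passed (2.44%), sec-61 and rab-11.1, against 0.475% of all genes, and both passed in replicate 1 alone. No trafficking gene passed in both GFP libraries.

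sec-61 encodes the pore subunit of the channel that carries new proteins into the ER (chromosome IV, 14822540 to 14825264, WBcel235, where RefSeq names it sec-61.A). It had 1005 and 1296 reads with MEG-3::GFP, 100 and 177 with PGL-1::GFP, and 84 and 14 with GFP alone. By raw reads it ranked 8 and 6 among all genes with MEG-3::GFP, 71 and 17 with PGL-1::GFP, and 11 and 301 with GFP alone. It was thus among the genes with most reads in GFP replicate 1 as well as with MEG-3::GFP, but not in GFP replicate 2. Its level was 4542 ± 123 CPM with MEG-3::GFP, 3317 ± 1987 with PGL-1::GFP and 2082 ± 1534 with GFP alone (mean ± SD, n = 2). Both MEG-3::GFP libraries were higher than either control library, while the PGL-1::GFP and GFP libraries overlapped. Against GFP alone the log2 fold change was 1.46 (SE 1.66, adjusted p = 0.999, edgeR's quasi-likelihood test). This gene alone held 24.6% and 25% of all trafficking reads with MEG-3::GFP, 21.0% and 16% with PGL-1::GFP, and 18.6% and 9.52% with GFP alone. Without it the MEG-3::GFP mean share was 1.38%, and the difference from PGL-1::GFP was -0.0156 points.

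rab-11.1 encodes the Rab of recycling endosomes, which in the zygote also acts in cortical granule release (chromosome I, 108674 to 110057). It had 356 and 427 reads with MEG-3::GFP, 1 and 86 with PGL-1::GFP, and 60 and 0 with GFP alone. The MEG-3::GFP libraries were alike, at 1551 ± 37.5 CPM, and the libraries of the other groups were not, at 488 ± 623 CPM with PGL-1::GFP and 1131 ± 1599 with GFP alone (SD, n = 2). GFP replicate 1 lay above both MEG-3::GFP libraries in CPM, so those groups overlapped. The fit gave a log2 fold change over GFP of 0.78 (SE 2.03, adjusted p = 0.999, edgeR), which turned to -0.37 without GFP replicate 2. Its paralog rab-11.2 had 0 reads in every library.

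rab-1 encodes the Rab of transport from ER to Golgi (chromosome V, 1262617 to 1263989). It had 225 and 124 reads with MEG-3::GFP, 0 and 19 with PGL-1::GFP, and 1 and 22 with GFP alone. Because GFP replicate 2 was shallow, its 22 reads put the GFP mean at 802 ± 1081 CPM, beside 720 ± 392 CPM with MEG-3::GFP (SD, n = 2). The groups overlapped, and the fitted log2 fold change of 0.19 (SE 2.33, edgeR) turned to -0.54 when libraries were scaled by their totals.

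rab-6.1, a Golgi Rab, showed another picture (chromosome III, 9004821 to 9005955). It had 118 and 120 reads with MEG-3::GFP, 1 and 7 with PGL-1::GFP, and 1 and 0 with GFP alone. It was at 476 ± 66.8 CPM with MEG-3::GFP and at 18.8 ± 26.7 with GFP alone (SD, n = 2), with each MEG-3::GFP library above each library of the other groups. The log2 fold change over GFP was 4.68 (SE 3.24, adjusted p = 0.999, edgeR). The gene overlaps the end of zif-1, a gene with 150 and 150 reads with MEG-3::GFP, by 19 bp, and without the strand option of the counting the reads of that stretch cannot be assigned. The paralog rab-6.2 had 0 and 17 reads with MEG-3::GFP, 0 and 2 with PGL-1::GFP, and 3 and 3 with GFP alone, and was lower in CPM in both MEG-3::GFP libraries than in either control library, on 6 GFP reads in all.

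Of the 20 Rab genes, 4 had no read anywhere. In both libraries of MEG-3::GFP 3 passed the threshold and 6 did in either, where 7.09% and 18.9% of all genes with a read did. The additional 3 were rab-5 of early endosomes with 45 and 124 reads, rab-8 of secretory vesicles with 59 and 64, and rab-14 of endosomes with 62 and 47. The 4 without a read were rab-3, which acts at synapses, rab-11.2, rab-19 and rab-28. The Rab list held 22% and 20.0% of trafficking reads with MEG-3::GFP and 21.5% and 33.3% with GFP alone. In PGL-1::GFP it held 0.629% (3 reads) in replicate 1 and 20.0% in replicate 2. Its near absence was thus seen in 1 library only, and the cause was not tested.

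arl-8 encodes an ARF-like GTPase that couples lysosomes to transport along microtubules (chromosome IV, 14798149 to 14799227). It had 251 and 296 reads with MEG-3::GFP, 12 and 13 with PGL-1::GFP, and 16 and 1 with GFP alone. Its MEG-3::GFP level of 1085 ± 39.2 CPM lay above every library of the other groups, and GFP was at 337 ± 376 CPM (SD, n = 2). This was a log2 fold change over GFP of 1.99 (SE 2.38, adjusted p = 0.999, edgeR). The other ARF and ARL genes were far less even. The classical ARF genes arf-1.2, which recruits the COPI coat, and arf-3 had 6 and 84, and 0 and 76 reads with MEG-3::GFP. In GFP they had 37 and 3, and 10 and 0. arl-5 had 57 and 1 reads with MEG-3::GFP, and arf-1.1, arl-6, arl-7 and arl-13 had no read anywhere. arl-6 and arl-13 are known for their part in cilia.

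**Figure D2:**
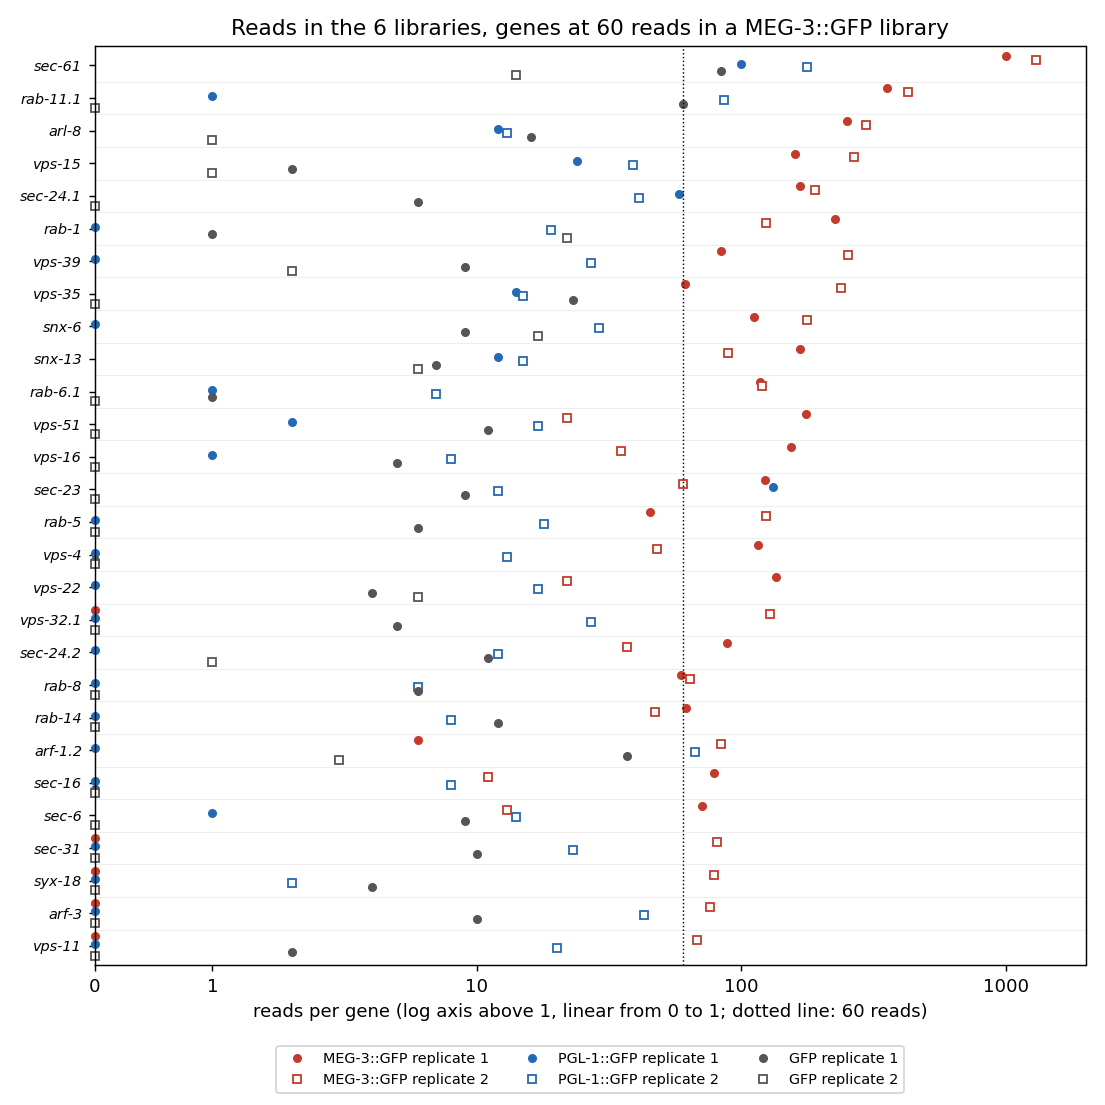
Reads in each of the 6 libraries (x axis, logarithmic above 1 read) for the 28 trafficking genes with at least 60 reads in either MEG-3::GFP library (y axis), with 1 point for each library and a dotted line at 60 reads. sec-61 has the most reads of the 28 in both MEG-3::GFP libraries, and GFP replicate 2 has 0 reads for 18 of them.

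The COPII coat was the list with the largest part of its genes past the threshold in either MEG-3::GFP library, 5 of 6, among lists of more than 1 gene (2 of 6 passed in both). Of all genes with a read, 18.9% passed in either and 7.09% in both. SEC-23 and SEC-24 form the inner coat and SEC-24 binds the cargo. sec-24.1 (chromosome IV, 11561986 to 11566194) had 166 and 189 reads with MEG-3::GFP, 58 and 41 with PGL-1::GFP, and 6 and 0 with GFP alone. It was at 705 ± 43.0 CPM with MEG-3::GFP, 1591 ± 1623 with PGL-1::GFP and 113 ± 160 with GFP alone (SD, n = 2), and each library of either tagged protein was above each GFP library. The fitted log2 fold change over GFP was 2.87 (SE 2.44) for MEG-3::GFP and 3.40 (SE 2.5) for PGL-1::GFP, with adjusted p = 0.999 in both (edgeR). Its paralog sec-24.2 had 88 and 37 reads with MEG-3::GFP, 0 and 12 with PGL-1::GFP, and 11 and 1 with GFP alone.

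sec-23 (chromosome V, 20091263 to 20105685) had 123 and 60 reads with MEG-3::GFP, 132 and 12 with PGL-1::GFP, and 9 and 0 with GFP alone. It stood exactly at the threshold in MEG-3::GFP replicate 2, and its reads with PGL-1::GFP came mostly from replicate 1. The fitted log2 fold change of PGL-1::GFP over GFP was 3.73 (SE 2.37, adjusted p = 0.999, edgeR) and was -0.10 without PGL-1::GFP replicate 1. The outer coat gene sec-31 had 0 and 81 reads with MEG-3::GFP, and the ER exit site scaffold gene sec-16 had 79 and 11. sec-16 had 0 reads with GFP alone. Its pooled MEG-3::GFP reads were 2.41 times a floor of 3 reads over both GFP libraries. This rested on replicate 1, since replicate 2 alone, at 39.3 CPM, lay below that floor of 73.9 CPM. sec-12, which encodes the activator of the COPII GTPase, had 0 and 8 reads with MEG-3::GFP and did not pass anywhere.

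vps-15 encodes the regulatory subunit of the kinase that makes phosphatidylinositol 3-phosphate on endosomes (chromosome II, 11908725 to 11915852). It had 160 and 266 reads with MEG-3::GFP, 24 and 39 with PGL-1::GFP, and 2 and 1 with GFP alone. Each library of either tagged protein was above each GFP library, at 830 ± 170 CPM with MEG-3::GFP against 73.3 ± 2.94 with GFP alone (SD, n = 2). Against GFP alone the log2 fold change with MEG-3::GFP was 3.82 (SE 2.7, adjusted p = 0.999, edgeR). The GFP value rests on 3 reads in all. vps-34, which encodes the catalytic subunit of the same kinase, had 2 and 32 reads with MEG-3::GFP and 0 and 2 with GFP alone.

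vps-39 encodes a subunit of HOPS, the tether of late endosomes and lysosomes (chromosome V, 14034323 to 14038378). It had 84 and 253 reads with MEG-3::GFP, 0 and 27 with PGL-1::GFP, and 9 and 2 with GFP alone. Each MEG-3::GFP library was above each library of the other groups in CPM, and the fitted log2 fold change over GFP was 1.75 (SE 2.51, adjusted p = 0.999, edgeR). Of the 8 genes of HOPS, CORVET and their Sec1/Munc18 partners, vps-39 alone passed in both MEG-3::GFP libraries. Of all genes with a read, 7.09% did. vps-16 had 154 and 35 reads with MEG-3::GFP and vps-11 had 0 and 68. The paralogs vps-33.1 and vps-33.2 had 0 and 22, and 0 and 20.

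Retromer returns cargo from endosomes to the Golgi or the cell surface, with sorting nexins that bind and bend the membrane. vps-35, its core subunit (chromosome II, 5907816 to 5911255), had 61 and 238 reads with MEG-3::GFP, 14 and 15 with PGL-1::GFP, and 23 and 0 with GFP alone. snx-6, a partner of retromer (chromosome V, 17968263 to 17980082), had 112 and 177, 0 and 29, and 9 and 17. snx-13 (chromosome IV, 17078820 to 17087438) had 166 and 89, 12 and 15, and 7 and 6. In CPM, MEG-3::GFP and GFP overlapped for all 3 genes. Their fitted log2 fold changes over GFP were 0.71 (SE 2.40) for vps-35, -0.09 (SE 2.36) for snx-6 and 0.93 (SE 2.45) for snx-13, with adjusted p = 0.999 (edgeR). The fold of vps-35 turned to -0.46 without MEG-3::GFP replicate 2, and that of snx-6 to 0.92 without GFP replicate 2. The other core subunits, vps-26 and vps-29, had 51 and 21, and 1 and 2 reads with MEG-3::GFP.

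The 12 ESCRT genes of the set, whose proteins sort ubiquitinated cargo into multivesicular endosomes, had 0 past the threshold in both libraries of MEG-3::GFP. In either library 3 passed. Of all genes with a read, 7.09% passed in both and 18.9% in either, so 0 of 12 does not set the list apart. Of 6 ESCRT genes with other names, 2 passed in both (tsg-101 and alx-1, below). vps-4, the ATPase that takes the complex apart, had 116 and 48 reads with MEG-3::GFP, 0 and 13 with PGL-1::GFP, and 0 and 0 with GFP alone. Its pooled MEG-3::GFP reads were 4.39 times the same floor of the GFP libraries. MEG-3::GFP replicate 1 or 2 taken by itself was 6.95 or 2.32 times that floor. The floor allows for counting error of the GFP reads only. It does not allow for that of the MEG-3::GFP reads or for the spread between libraries. The fitted log2 fold change of vps-4 over GFP was 8.27 (SE 4.89, adjusted p = 0.999, edgeR). vps-22 had 135 and 22 reads with MEG-3::GFP, and vps-32.1, which forms the ESCRT filament, had 0 and 128. vps-25 had 6 and 26 reads with MEG-3::GFP, 106 and 3 with PGL-1::GFP, and 1 and 0 with GFP alone. Those 106 reads were all the ESCRT reads of PGL-1::GFP replicate 1, 22.2% of its trafficking reads.

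The remaining lists had their genes mostly below the threshold, where 18.9% of all genes with a read passed in either MEG-3::GFP library. Of 6 exocyst genes, which tether secretory vesicles at the plasma membrane, only sec-6 passed in either MEG-3::GFP library, with 71 and 13 reads. Of 4 genes of the related GARP and EARP complexes, only vps-51 did, with 176 and 22. GARP tethers vesicles arriving at the Golgi from endosomes. Of 11 SNARE genes only syx-18, which acts at the ER, passed in either library, with 0 and 79. In PGL-1::GFP, vps-54 of the GARP list had 0 and 61 reads.

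**Figure D3:**
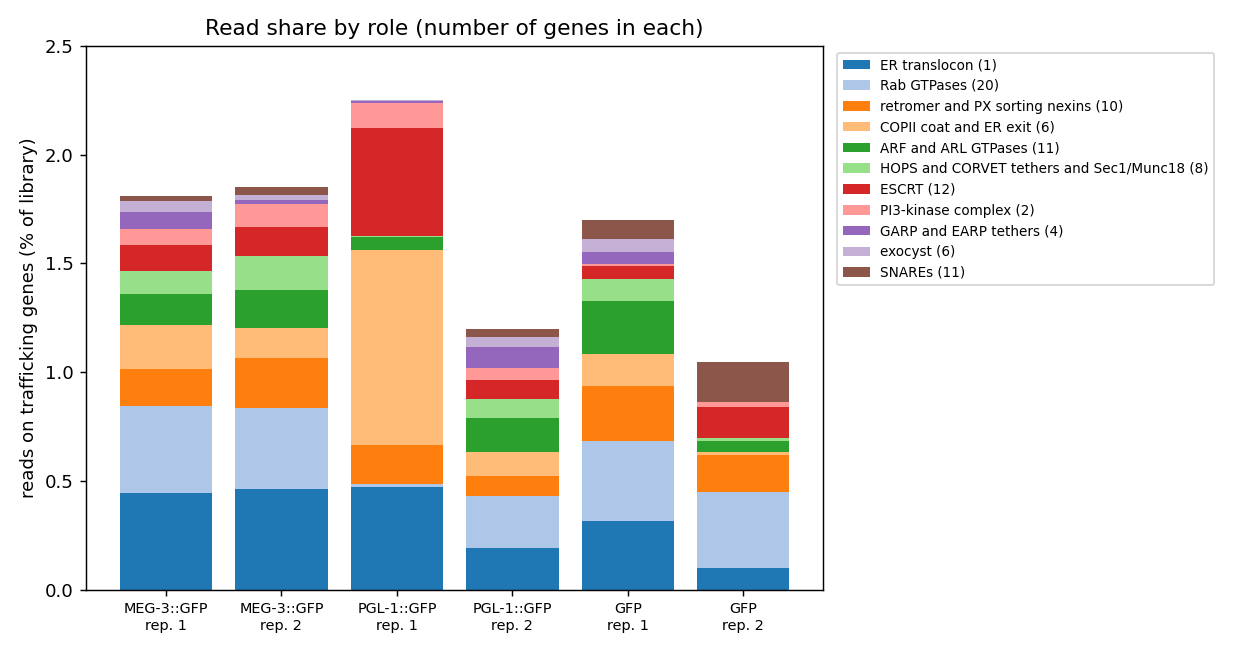
Stacked bars of the percent of reads in each library that fell on each of the 11 role lists of trafficking genes, in the 6 libraries. sec-61 alone makes up the ER translocon list, and COPII is the highest list in PGL-1::GFP replicate 1, at 39.8% of trafficking reads.

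Agreement between replicates set what could be read from these values. Of the 78 trafficking genes with a read in MEG-3::GFP replicate 2, 40 had none in replicate 1, and no gene had a read in replicate 1 alone. That is 51.3% of the 78, against 55.1% of other genes read in replicate 2. By the ratio of the larger to the smaller count, the 5 widest gaps among genes with 60 reads in a single MEG-3::GFP library were all of this kind, vps-32.1, sec-31, syx-18, arf-3 and vps-11, each listed at 0 in replicate 1. A further 3 genes passed in replicate 2 alone, arf-1.2, rab-5 and rab-8, and 8 in replicate 1 alone, led by vps-51, vps-16, vps-22 and vps-4. Among the 12 genes past the threshold in both, the larger count was 1.02 to 3.90 times the smaller, with a median of 1.62, against 1.5 for the other genes that passed. Over the 38 trafficking genes read in both MEG-3::GFP libraries Spearman's rho across genes was 0.644, against 0.429 over 2869 other genes. It was 0.17 over 14 genes with PGL-1::GFP, against 0.0757 for other genes, and -0.245 over 17 genes with GFP alone, against -0.0417. These values are given as a description, since genes of a library share its depth and are not independent replicates.

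**Figure D4:**
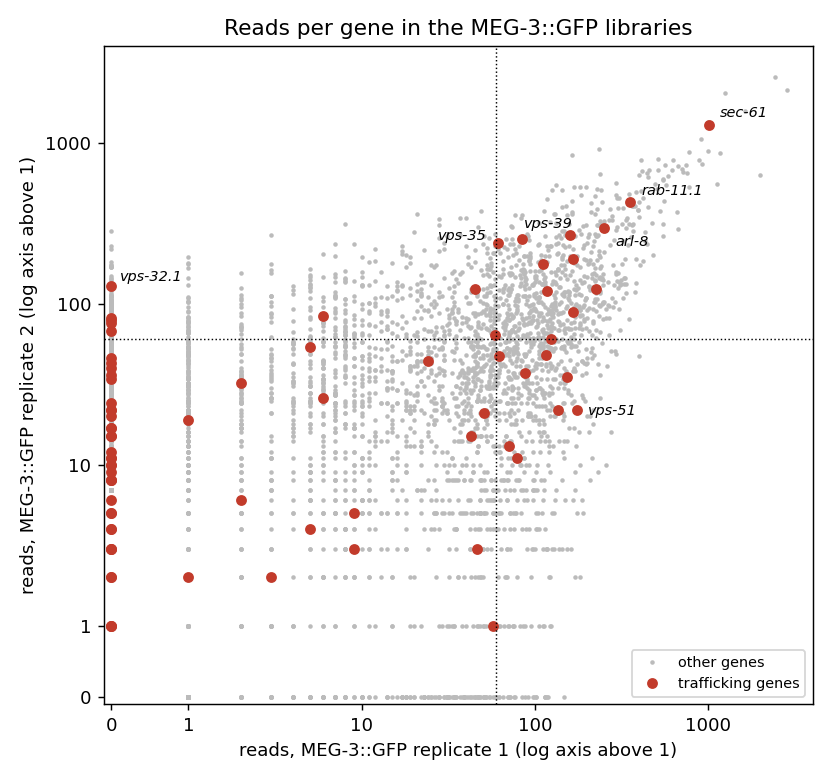
Reads of each trafficking gene in MEG-3::GFP replicate 1 against replicate 2, on axes logarithmic above 1 read, with other genes in grey and dotted lines at 60 reads. The 12 trafficking genes on or beyond both lines pass in both libraries, and the column at 0 holds the 40 genes read in replicate 2 alone.

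In the comparison with GFP alone, 11 trafficking genes stood higher in CPM in both MEG-3::GFP libraries than in either control library, which is 13.4% of the 82, where 12.3% of all genes with a read did. They were sec-61, arl-8, vps-15, sec-24.1, vps-39, rab-6.1, vps-4, rab-8, sec-16, sec-8 and vps-20. The last had 9 and 3 reads with MEG-3::GFP, a level below the GFP floor. sec-8 (53.6 CPM, 15 reads) and sec-16 (39.3 CPM) also lay below the 73.9 CPM floor of both GFP libraries in MEG-3::GFP replicate 2. In the same library vps-4, at 171 CPM, lay below the 214 CPM floor of GFP replicate 2 taken alone. The margin was narrow for rab-8, at 228.6 CPM in MEG-3::GFP replicate 2 against 226.2 in GFP replicate 1. It was narrow too for vps-39, at 372 CPM in MEG-3::GFP replicate 1 against 339 in GFP replicate 1. In the opposite direction, 3 were lower in each MEG-3::GFP library (rab-6.2, sec-12 and syx-16), 3.66% against 4.73% of all genes. Both shares were near the background of all genes. The 3 lower genes rested on few GFP reads, 3 and 3, 2 and 1, and 8 and 1 in that order. The counts that follow also include genes with few reads, since 1 read in GFP replicate 1 is 37.7 CPM. Without GFP replicate 2, in which 18 of the 28 genes at 60 reads in a MEG-3::GFP library were at 0, 17 were higher (20.7%, against 14.7% of all genes) and 29 lower (35.4%, against 23.9%). In edgeR's quasi-likelihood test over all 6 libraries, 31 trafficking genes were among the 2033 tested, and 0 were called at an adjusted p under 0.05, where 0% of all genes were called. At an unadjusted p under 0.05 there were 63 of all genes, 46 of them lower with MEG-3::GFP, and 0 trafficking genes. DESeq2 called 44 of all genes, all lower with MEG-3::GFP, and 0 trafficking genes. The median log2 fold change of the 31 was 0.78, against 0.73 over all genes tested, with 22 above and 9 below 0. The dispersion between libraries was 1.93, a coefficient of variation of 1.39, so that a missed threshold does not show equal levels.

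Between PGL-1::GFP and GFP, 3 trafficking genes were higher in each PGL-1::GFP library, rab-6.1, sec-24.1 and vps-15, which is 3.66% against 2.61% of all genes. Lower in each were 5, rab-6.2, rab-7, vps-26, vps-36 and snx-6, which is 6.1% against 4.53%. All of the 5 but rab-7 had 0 reads in PGL-1::GFP replicate 1, where 3 reads are 142 CPM. All but snx-6 also had a GFP library below that level. Without GFP replicate 2, 3 were higher (3.66%, against 3.31% of all genes) and 37 lower (45.1%, against 25.4%). In PGL-1::GFP replicate 1, 76 of the 91 trafficking genes had 0 reads, and the part of its low depth was not tested. edgeR called 0 of the 31 and 0% of all genes, with 16 of all genes and 0 trafficking genes at an unadjusted p under 0.05. DESeq2 called 0 of all genes, and at an unadjusted p under 0.05 it had 88 of all 2033 genes and 3 of the 31 trafficking genes. The median log2 fold change of the 31 was -0.31, against -0.05 over all genes tested. This comparison shares the GFP libraries with the one before.

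Comparing the tagged proteins, 16 trafficking genes were higher in each MEG-3::GFP library, which is 19.5% against 10.2% of all genes, and 0 were lower in each, against 1.93%. The 16 were arl-8, 7 Rab genes (rab-1, rab-5, rab-6.1, rab-7, rab-8, rab-11.1 and rab-14), sec-24.2, snx-6 and 6 vps genes (vps-2, vps-4, vps-16, vps-26, vps-36 and vps-39). Of these, 11 had 0 reads in PGL-1::GFP replicate 1, in which 3 reads are 142 CPM, and the part of its low depth was not tested. edgeR called 0 of the 31 and 0% of all genes, with 26 of all genes, all lower with MEG-3::GFP, and 0 trafficking genes at an unadjusted p under 0.05. DESeq2 called 2 of all genes and no trafficking gene, with 129 of all 2033 genes and 1 of the 31 trafficking genes at an unadjusted p under 0.05. The median log2 fold change of the 31 was 1.72, against 0.88 over all genes tested. The 3 trafficking genes with the lowest unadjusted p were vps-29 at a log2 fold change of -4.57 (SE 3.86), rab-6.1 at 3.16 (SE 2.82) and rab-1 at 2.75 (SE 2.48), with adjusted p = 1 (edgeR). The value of vps-29 rests on few reads, 1 and 2 with MEG-3::GFP and 12 and 0 with PGL-1::GFP.

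Position and length were measures that the choice by name did not use. Of the 12 genes past the threshold in both MEG-3::GFP libraries, 4 lie on chromosome IV, 4 on V, 2 on II, 1 on I, 1 on III and 0 on X, where the 91 genes fall as 14, 11, 17, 18, 16 and 15. The median length from gene start to end was 3748 bp for the 12 and 2355 bp for the 70 other trafficking genes with a read. For other protein-coding genes it was 3309.5 bp past the threshold and 2752 bp below it. In both classes the genes past the threshold had the longer median. Per kilobase of that length, mean MEG-3::GFP reads were 422 for sec-61, 283 for rab-11.1, 253 for arl-8, 127 for rab-1 and 105 for rab-6.1. The other 7 lay between 6.34 for sec-23 and 43.5 for vps-35. The length includes introns. By the same annotation 5 of the 12 overlap another gene: rab-6.1 as above, and rab-1, sec-23, vps-39 and vps-15 with genes that had 0 reads in both MEG-3::GFP libraries.

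Other trafficking genes, which the name rule does not reach, were read from a separate list of 97 genes, of which 90 were in the table. Of these, 84 were read somewhere. The list was chosen with earlier results of these data known. In both MEG-3::GFP libraries 17 of the 84 passed (20.2%, where 7.09% of all genes with a read did), and in either 35 did (41.7%, against 18.9%). Of 6 COPI genes, whose coat carries vesicles from Golgi to ER, 4 passed in both: copa-1 with 90 and 106 reads, copb-1 with 163 and 369, copd-1 with 235 and 202, and cope-1 with 102 and 90. The endocytic genes chc-1, the clathrin heavy chain, with 515 and 792 reads, dab-1, a cargo adaptor, with 666 and 721, and epn-1, an epsin, with 242 and 311, had the most reads of the list over both libraries together. The yolk receptor gene rme-2 had 86 and 198 reads, and the recycling genes rme-1 and rme-8 had 186 and 70, and 211 and 209.

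The other 7 that passed in both were nsf-1, the ATPase that recycles SNAREs, with 223 and 141 reads, sar-1, the COPII GTPase, with 144 and 157, gbf-1, an ARF activator, with 80 and 113, the Golgi tether genes cogc-2 with 118 and 86 and trpp-10 with 161 and 62, and the ESCRT genes tsg-101 with 90 and 198 and alx-1 with 85 and 64. None of the 90 passed in both PGL-1::GFP libraries, 1 passed in either, and 0 in either GFP library. In GFP, chc-1 had 23 and 1 reads, dab-1 43 and 3, and epn-1 20 and 19, the last of which is a larger part of the shallow replicate 2.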

How the data were processed

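The authors trimmed the 3' adaptor, mapped the rest with HISAT2 to genome release ws235 (version 2.1.0 of the program in the submitters' processing notes), collapsed PCR duplicates by their random barcode and assigned reads to genes with HTSeq. The deposited values are these raw counts for each library, neither normalized nor pooled. The HTSeq version, its options, the use of strand and the annotation are not given in the sources used here. Collapsing duplicates makes a read close to 1 crosslinked molecule, and without the strand option reads of overlapping genes cannot be told apart.

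Genes were taken once per identifier (438 stood on several rows with equal counts). RefSeq tables of assembly WBcel235 gave type, position and length for 46406 of 46646 genes. CPM is the count divided by the library total, scaled to 1e+06 reads. The total ran from 14040 to 280007. The names rule, the role lists and the other lists were chosen with earlier results of these data known. Differences were tested on the counts by the quasi-likelihood test of edgeR 4.0.16 under R 4.3.3 (TMM, filterByExpr, Benjamini-Hochberg over 2033 genes) in 1 fit of all 6 libraries. The SE of a fold change is its size divided by the root of the test's F statistic. DESeq2 1.42.0, other scaling, filters, thresholds, a replicate block and each library left out were alternatives. Read shares were compared by exact permutation (SciPy 1.17.1), and tables were made with pandas 2.3.3 and Python 3.11.15. The test was tried on simulated data, where it recovered most changed genes at a low dispersion and none at the dispersion estimated from these libraries.

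Genes named are those at 60 reads in both libraries of a tagged protein or in either GFP library, the 5 widest replicate gaps, the 3 lowest p-values of each contrast, the leading gene and counts of each role list, Rab paralogs, and other trafficking genes at 60 reads in both MEG-3::GFP libraries. Further genes given with their role list were named after their values were seen.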

Additional observations from a re-analysis of the deposited data

How the results depend on the processing

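The count of trafficking genes at the threshold depended on the rule. Shares of all genes after scaling, or at 30 or 100 reads, were not counted. In both MEG-3::GFP libraries it was 12, with 3 after scaling to the median total, 28 for either library and 20 to 20 with 1 replicate left out. In both PGL-1::GFP libraries it was 1, with 2 at 30 reads, 6 for either library and 3 to 4 with 1 replicate left out. In either GFP library it was 2, with 0 at 100 reads, 7 after scaling, 0 for both libraries and 0 to 2 with 1 replicate left out. The MEG-3::GFP mean share was 1.83%, with 1.87% over protein-coding genes only, 1.38% without sec-61 and 2.00% with genes added by RefSeq name, an alternative chosen after seeing the data. With 1 library left out, the share difference between MEG-3::GFP and GFP ran from 0.131 to 0.784 points, that between PGL-1::GFP and GFP from -0.177 to 0.879, and that between the tagged proteins from -0.421 to 0.635. The last was -0.0156 without sec-61. Over protein-coding genes only, the mean shares were 1.82% with PGL-1::GFP and 1.53% with GFP alone. The differences, in the same order, were then 0.342, 0.299 and 0.0432 points. In an alternative chosen after seeing the data, without GFP replicate 2, the trafficking genes that did not overlap with GFP alone went from 11 to 17 higher and from 3 to 29 lower with MEG-3::GFP, and from 5 to 37 lower with PGL-1::GFP. The cause of these changes was not tested, other than the library or gene left out.

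No trafficking gene was called in any contrast under any alternative. Over all genes, DESeq2 called 44 between MEG-3::GFP and GFP and 2 between the tagged proteins, where edgeR called 0. Of 205 alternative values of 19 named fold changes, 190 kept their direction, 1 was 0 (vps-4, PGL-1::GFP over GFP, without PGL-1::GFP replicate 2, where no read is left on either side), and the lowest adjusted p was 0.589. The 14 that turned belong to 5 fold changes. For MEG-3::GFP over GFP, rab-1 was -1.10 with DESeq2, -0.54 with library totals, -0.99 with DESeq2 size factors, and -0.42 to 4.35 with 1 library left out (-0.27 without MEG-3::GFP replicate 1). With 1 library left out, rab-11.1 ran from -0.37 to 10.71 and vps-35 from -0.46 to 9.35 (-0.40 without GFP replicate 2). snx-6 was 0.17 without a filter, 0.38 with the replicate block, and -0.29 to 0.92 with 1 library left out (0.21 and 0.26 without replicate 1 of MEG-3::GFP or of PGL-1::GFP). For PGL-1::GFP over GFP, sec-23 ran from -0.10 to 10.62. The high ends of rab-11.1, vps-35 and sec-23 leave out GFP replicate 1, after which the control is at 0 and the fold is no bound. The median log2 fold change of the trafficking genes ranged from 0.43 to 5.30 for MEG-3::GFP over GFP, from -6.46 to 5.50 for PGL-1::GFP over GFP and from 0.64 to 5.29 for MEG-3::GFP over PGL-1::GFP with 1 library left out. A lone library was then assumed to vary like the other groups.

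Samples of different groups share only a replicate number. The correlation of the deviations of same-numbered libraries was 0.0526 for MEG-3::GFP with PGL-1::GFP, -0.0496 for MEG-3::GFP with GFP and 0.186 for PGL-1::GFP with GFP. With the replicate number as a block, 0 trafficking genes and 0 of all genes were called in each contrast, and the median log2 fold changes were 0.81, -0.88 and 1.65.

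Depth limits all levels. A count of 0 allows 3 reads, which is 113 and 214 CPM with GFP alone and 142 CPM in PGL-1::GFP replicate 1. Of the 91 genes, 57 had at most 3 reads in each GFP library.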

Other observations

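RefSeq gives a trafficking name of the same kind to 10 genes that the deposited table lists under another name, so the choice by name did not reach them. In this group, identified after the data were seen, 2 of the 10 genes reached 60 reads in both MEG-3::GFP libraries. Of all genes with a read, 7.09% did. Both of the 2 genes belong to entry into the ER. sec-62 had 65 and 164 reads with MEG-3::GFP, 0 and 26 with PGL-1::GFP, and 3 and 0 with GFP alone. sec-61.B, the small subunit of the same channel as sec-61, had 85 and 164, 16 and 36, and 30 and 2. The third subunit of the channel, sec-61.G (emo-1 in the table), had 0 and 30 reads with MEG-3::GFP, 0 and 19 with PGL-1::GFP, and 25 and 0 with GFP alone. vps-13A, named after a lipid transfer protein, had 127 and 52 reads with MEG-3::GFP and 0 and 2 with GFP alone. sec-16A.2 differed from sec-16, with 0 and 4 reads with MEG-3::GFP, 0 and 27 with PGL-1::GFP, and 52 and 7 with GFP alone. None of these differences was tested as a group.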
